A study of Mus musculus with 4 samples.

Results

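The genes described here encode the m6A writers, the proteins that place N6-methyladenosine (m6A), a methyl mark on adenosines inside messenger RNA. The 9 genes Mettl3, Mettl14, Wtap, Virma, Rbm15, Rbm15b, Zc3h13, Cbll1 and Mettl16 were chosen by name, and their peaks were found by the gene name that the authors' lists give each peak. They are 9 of 13067 gene names in the peak tables. All 9 had a peak in the KO list (14 of 21031 peaks) and 7 had a peak in the WT list (11 of 16709 peaks). Of all 13067 gene names, 11675 had a peak in the KO list and 9875 in the WT list. In the authors' deposited table of differences, 6 of the 9 genes held 8 of the 6050 peaks. The data are m6A-seq of mouse macrophages, in which RNA fragments carrying m6A are pulled down with an antibody (IP library) and compared with fragments that skipped the pull-down (input library). KO cells carried floxed Mettl3 alleles and a Cre recombinase under LysM control (LysM-cre, Mettl3fl/fl), and WT cells carried the floxed alleles without Cre (Mettl3fl/fl). Both came from C57BL/6 bone marrow grown for 7 days with macrophage colony-stimulating factor, so the floxed alleles, the strain and the culture were common to both. Each genotype had 1 IP and 1 input library.

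METTL3 is the enzyme that transfers the methyl group, and METTL14 is its inactive partner, which holds the RNA substrate. A larger group of proteins places this pair on RNA: WTAP brings it to nuclear speckles, VIRMA and ZC3H13 act as scaffold and anchor, RBM15 and RBM15B bind RNA and recruit the complex, and CBLL1 (also called HAKAI) is a ubiquitin ligase bound to it. METTL16 is a separate methyltransferase, known in human cells for methylating the U6 small nuclear RNA and hairpins of the MAT2A transcript. LysM-Cre acts in myeloid cells, macrophages among them, and is an insertion into the lysozyme gene Lyz2.

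With 1 library per group no difference below has a replicate check, and read totals are unknown here. Of 9 macrophage markers, 6 had a listed input level, between 58.4 FPKM (Fcgr1) and 6615 FPKM (Lyz2) in KO and between 40.6 FPKM (Fcgr1) and 10533 FPKM (Lyz2) in WT, where FPKM is a fragment count corrected for transcript length and for depth. Of 6 neutrophil markers, S100a8 and S100a9 had a listed level and summed to 137 FPKM in KO and 233 FPKM in WT, while the dendritic cell marker Itgax stood at 46.7 FPKM in KO and 71.9 FPKM in WT. Their part in the results below was not tested. No T, NK or stromal marker had a listed level, although the stromal genes Col1a1 and Col1a2 had peaks in both lists, and Cd79b, of 4 B cell markers the only member with a listed level, stood at 0.73 FPKM in KO and 1.12 FPKM in WT. Levels are listed only for genes with a differential peak, so Mettl3 has none and the deletion could not be checked on its own transcript.

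Peaks covered bases just after a RefSeq start in Rbm15 and Rbm15b and in no other writer gene with a RefSeq promoter window. The first 30 bases transcribed from that start are therefore shown for these 2 genes. In Rbm15b this start, 106887075, is the 5′ end of the RefSeq extent of the gene. In Rbm15 it is 107333289, which lies inside the RefSeq extent of the gene, whose 5′ end is at 107334460. The windows are of build GRCm38.p6, each with 250 bases before the start and 50 after it, and 7 of the 9 genes had such a window (10 windows in all). Capitals mark a match to any of 18 strings of bases, the sequence context in which METTL3 is known to work. Such a string has A, G or T at its first place, A or G at the next, then A, then C, and ends in A, C or T.
Rbm15, minus strand, chr3:107333260-107333289: ggTGACCatgaagtgcgaggggcggagcta
Rbm15b, minus strand, chr9:106887046-106887075: gagtccttttgtccaagatggcggcgccgg
Over the 50 transcribed bases, Rbm15 held TGACC and GAACC, and Rbm15b held none of the strings on its own strand and at least 1 on the opposite strand. Of all 32851 RefSeq windows, 54.4% held at least 1 of the strings on the gene's strand in those 50 bases and 55.2% on the opposite strand, so a match is common and marks no methylated base. Of the 10 windows of writer genes, 2 held such a string on the gene's strand and 4 on the opposite strand. A peak over those 50 bases was listed for 2 of the 7 writer genes with a window and a KO peak, against 17.5% of 7692 genes in the KO list, and for 2 of the 6 with a WT peak, against 22.9% of 6620 genes in the WT list. The bases under the rest of them were not analysed here.

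Peaks on the catalytic pair and on Mettl16 were few and short, and no KO peak on them shared a base with a WT peak. Mettl3 (ENSMUSG00000022160) had 1 peak of 240 exonic bases in KO, annotated to the 3′ UTR. It ran from 52296090 to 52296658 on chromosome 14 (all peak positions are in mm10), and its enrichment over input was 1.35-fold, at the 4.48th percentile of the KO list. Its false discovery rate was 0.0759, and the WT list held no peak named for Mettl3. The enrichments, p-values and false discovery rates of peaks are the authors'. The KO list held a second weak peak over the same place, from 52296072 to 52296281, that was named for the neighbouring gene Tox4 on the opposite strand. It lay 562 bases outside the RefSeq extent of Tox4 and inside that of Mettl3, and it shared 97 bases with the Mettl3 peak, so the strand of this signal is uncertain.

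Mettl14 (ENSMUSG00000028114) had a peak in KO only. Its 270 bases lay at the 3′ end of the gene, on chromosome 3 from 123368297 to 123368566, 2 bases from the RefSeq end. The enrichment was 8.27-fold, at the 82.6th percentile of the KO list, and the false discovery rate was 0.00871. No difference between genotypes was listed for it, so its absence from the WT list is a matter of the listing, not a measured difference.

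Mettl16 (ENSMUSG00000010554) had 1 peak in each genotype at different places. The KO peak ran from 74818455 to 74818695 on chromosome 11, at 2.36-fold with a false discovery rate of 0.253. The WT peak ran from 74817346 to 74817646, at 1.93-fold with a false discovery rate of 0.000347. They lay 808 bases apart, both were annotated to the 3′ UTR, and neither was listed as differential. Mettl3, Mettl14 and Mettl16 are also the 3 genes of the set with no listed input level.

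Each of the 6 other genes carried at least 1 peak of at least 838 bases in each genotype that overlapped one in the other. Wtap (ENSMUSG00000060475) had 1 peak in each list, of 4 exonic blocks and annotated to the 3′ UTR. In KO it covered 1376 bases from 12974592 to 12983762 on chromosome 17, at 3.63-fold (56.7th percentile of that list). In WT it covered 1735 bases from 12974233 to 12983762, at 8.86-fold (78.7th percentile of that list). All of the KO bases lay inside the WT peak, which extended 359 bases further at the 3′ side. Peaks in the authors' deposited table of differences have limits of their own, and their ratios are not simply those of the 2 listed folds. There the Wtap peak covered 1585 bases from 12974293 to 12983672. For this peak the authors' deposited table gives a log2 ratio of -0.66, KO enrichment over WT enrichment (p = 6.31e-22, false discovery rate 2.51e-20), the lowest of the set.

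The Wtap peak ended 7793 bases short of the RefSeq 3′ end in KO and 7434 bases short in WT, and the last exons carried m6A under another name. A peak of 957 bases in 3 blocks, from 12967364 to 12972798, was named for Acat2, an enzyme of acetoacetyl-CoA metabolism that lies next to Wtap on the same strand. It stood 6638 bases outside the RefSeq extent of Acat2 and lay wholly inside Wtap. Its limits were the same in both lists, with an enrichment of 1.80-fold in KO and 3.32-fold in WT. The log2 ratio there was -0.69 in the authors' deposited table (false discovery rate 2e-14), close to that of the peak named for Wtap. A further KO peak named Acat2, from 12966796 to 12967035, lay at the 3′ end of Wtap at 1.78-fold and had no WT counterpart.

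Virma (ENSMUSG00000040720) had its m6A over the exons in the middle of the gene. The WT list gave 1 peak of 7 blocks and 2340 bases, from 11513173 to 11526967 on chromosome 4, annotated to exon 8 of 13, at 4.70-fold. The KO list covered the same stretch with 3 peaks. The first, from 11513083 to 11513233, stood at 1.37-fold with a false discovery rate of 0.132. The second, from 11513382 to 11519279, had 1291 bases at 4.34-fold. The third, from 11521209 to 11526877, had 511 bases at 2.33-fold and was named for the downstream gene Rad54b, although its annotation gives exon 10 of 13 of Virma and Rad54b begins 32042 bases beyond it. The log2 ratio over the second of these was -0.33 in the authors' deposited table (false discovery rate 0.00933).

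A peak with the opposite direction also lay inside Virma. It too was named for Rad54b and annotated to a 3′ UTR, from 11527206 to 11527566 in KO at 8.27-fold and from 11527326 to 11527596 in WT at 3.57-fold. Its log2 ratio was 1.78 in the authors' deposited table (p = 0.0363), with a false discovery rate of 0.0891. This position is 31353 bases before Rad54b and 23577 bases before the RefSeq end of Virma. Closer to that end, KO had a peak of 271 bases at 6.49-fold from 11550414 and WT had a peak of 151 bases at 1.68-fold from 11549724, both under the name Rad54b and at different places.

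Zc3h13 (ENSMUSG00000022000) had the most exonic sequence under peaks. In WT 1 peak joined 11 blocks and 4069 bases, from 75316000 to 75338147 on chromosome 14, at 16.9-fold (92.3rd percentile). In KO the same stretch was listed as 2 peaks with 447 bases between them: 2424 bases in 7 blocks at 10.3-fold, and 1198 bases in 5 blocks at 4.24-fold. The 3′ UTR peak stood at 4.13-fold in KO (898 bases) and at 7.02-fold in WT (928 bases). The 3 differential peaks followed each other along the transcript with log2 ratios of -0.32, -0.46 and -0.58 in the authors' deposited table, the most negative at the 3′ end. Their false discovery rates there were 9.33e-06, 0.000427 and 0.00562. The peaks were computed from the same 4 libraries and the authors' deposited table gives no error for a ratio, so the order along the transcript was not tested.

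**Figure D1:**
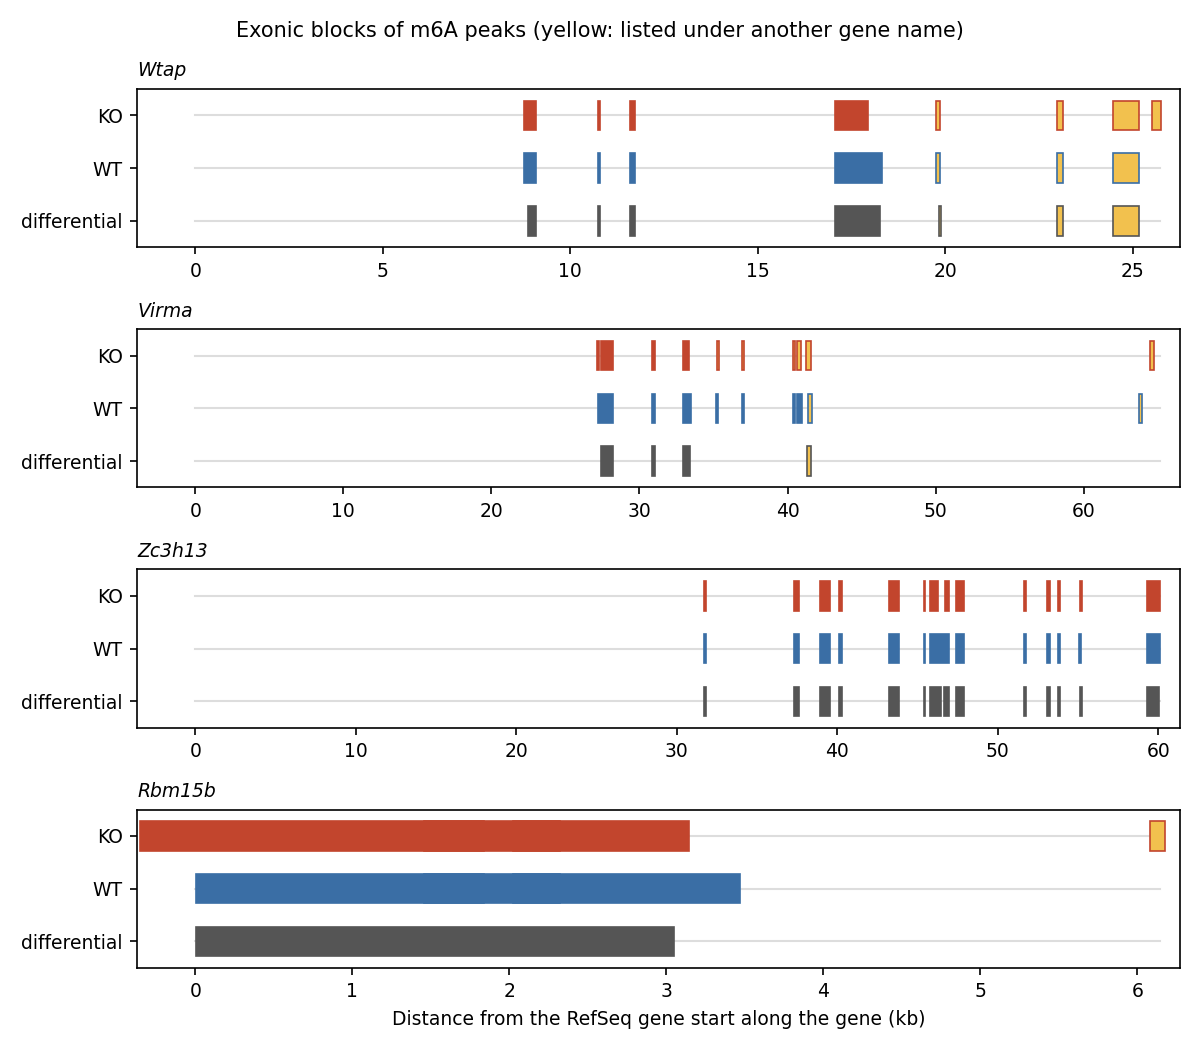
Exonic blocks of the peaks of Wtap, Virma, Zc3h13 and Rbm15b by distance from the RefSeq gene start in kb, with KO peaks in red, WT peaks in blue, differential peaks in grey and peaks listed under another gene name in yellow with an outline in the colour of their list (thin blocks show mostly outline). Most blocks of the 2 genotypes lie above each other, and the 3′ end of Wtap and the parts of Virma beyond its named peaks are yellow.

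Rbm15 (ENSMUSG00000048109) and Rbm15b (ENSMUSG00000074102), which encode related RNA-binding proteins, had the peaks of highest fold enrichment in the set, each an unbroken block of at least 3293 bases. The Rbm15 peak covered 3382 bases in KO, from 107330112 to 107333493 on chromosome 3, at 13.8-fold (93.6th percentile), and 3293 bases in WT, from 107330082 to 107333374, at 18.8-fold (93.6th percentile). It is annotated to the 5′ UTR and crosses the start printed above in both lists. The log2 ratio was -0.18 in the authors' deposited table, the nearest to 0 of the set, with a false discovery rate of 0.0708. A small second WT peak, from 107333464 to 107333673, stood at 2.04-fold with a false discovery rate of 0.238. The long peak reached 204 bases before that start in KO and 85 bases before it in WT. The small WT peak, which missed the 0.05 rate, reached 384 bases before it. Each of these peaks lay wholly inside the RefSeq extent of Rbm15, whose 5′ end is further upstream, at 107334460.

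Rbm15 also had a 3′ UTR peak of 450 bases in each list, at 3.66-fold in KO (56.9th percentile) and at 2.38-fold in WT (32.1st percentile). It was not listed as differential. Enrichments in the KO and WT lists were called on separate libraries, so here as elsewhere they are set side by side with no test.

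The Rbm15b peak covered 3495 bases in KO, from 106883934 to 106887428 on chromosome 9, at 21.8-fold (97.5th percentile), and 3465 bases in WT, from 106883606 to 106887070, at 33.4-fold (97.8th percentile). These are the highest enrichments of the set in each list. The peak is annotated to the 3′ UTR but runs on to the 5′ end of the gene. Its upstream limit was 353 bases before the start printed above in KO and 5 bases after it in WT. That start is the 5′ end of the RefSeq extent of Rbm15b, so 3142 of the 3495 KO bases lay inside the extent. A peak of 682 bases, at 16.5-fold in KO and 15.0-fold in WT, was listed with 2 blocks and lay wholly inside the long peak in both lists, so it is not independent of it. This nested peak had the higher fold in KO, where the long peak had it in WT, and was not listed as differential. The counts of peaks given below include it, and without it there were 13 KO and 10 WT peaks in the set, of which 10 in KO and 9 in WT shared bases. At the other end of the gene, a KO peak of 91 bases named for Dcaf1 on the opposite strand overlapped both genes, with a false discovery rate of 0.227. The log2 ratio of the long peak was -0.32 in the authors' deposited table (false discovery rate 0.00195).

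Cbll1 (ENSMUSG00000020659) had 1 peak in its 3′ UTR on chromosome 12. It covered 838 bases in KO, from 31487161 to 31487998, at 4.31-fold (61.7th percentile), and 1077 bases in WT, from 31487191 to 31488267, at 6.83-fold (67.9th percentile). The log2 ratio was -0.60 in the authors' deposited table (false discovery rate 0.000275). The predicted gene Gm29542 lies on the opposite strand of the same stretch and has its own peak, sharing 499 bases with the Cbll1 peak in KO and 470 bases in WT. Its log2 ratio was -0.43 in the authors' deposited table (false discovery rate 0.0617). The lists do not give the strand of a peak, so both may be 1 signal.

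**Figure D2:**
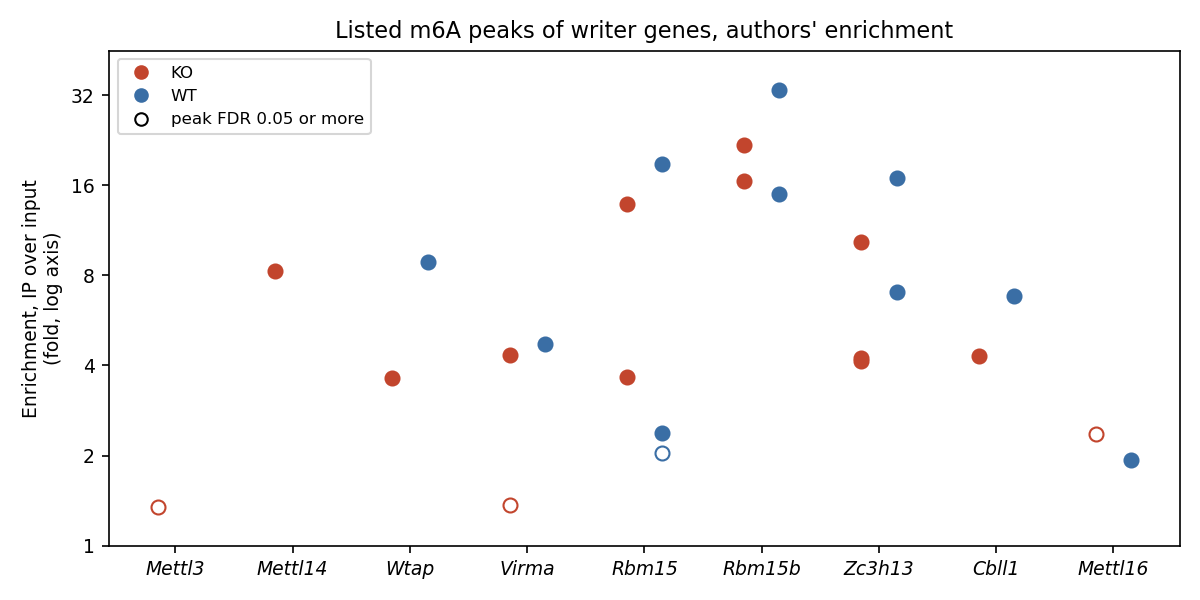
Enrichment of IP over input (fold, log axis) of every peak named for a writer gene, KO in red left of WT in blue, with open circles for peaks with a false discovery rate of 0.05 or more. Rbm15b has the highest peak in each list, at 21.8-fold in KO and 33.4-fold in WT, and the 3 open KO circles are Mettl3, Virma and Mettl16.

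Set against all listed peaks, those of the writer genes were long and of high median enrichment. Their median exonic length was 868 bases in KO and 1077 bases in WT, against 330 and 391 bases for the whole KO and WT lists. Their median enrichment was 4.28-fold in KO and 7.02-fold in WT, against 3.15-fold and 3.74-fold for the whole KO and WT lists. A false discovery rate under 0.05 was reached by 11 of 14 KO peaks, where 64.9% of the KO list reached it, and by 10 of 11 WT peaks, where 70.2% of the WT list did. An enrichment of 4-fold or more was listed for 9 of 14 KO peaks and 8 of 11 WT peaks, against 40.5% of the KO list and 48.0% of the WT list. A peak p of 1e-10 or lower was listed for 9 KO peaks and 8 WT peaks, against 24.4% of the KO list and 30.7% of the WT list. The authors annotated 9 of 14 KO peaks and 7 of 11 WT peaks to the 3′ UTR. These counts were near the shares of 64.1% of the KO list and 59.6% of the WT list. They count labels, and a label does not place a whole peak in the 3′ UTR. The long Rbm15b peak carries this label and runs on to the region of the gene start. The Wtap peak carries it and spans several exonic blocks.

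Of the 14 KO peaks, 11 shared at least 1 exonic base with a WT peak, against 61.6% of the KO list, and 10 of 11 WT peaks shared one with a KO peak, against 73.4% of the WT list. With at least 50% of both peaks shared, the counts were 9 in KO and 9 in WT, against 41.5% of the KO list and 52.2% of the WT list. The KO peaks without a WT counterpart were those of Mettl3, Mettl14 and Mettl16, and the WT peak without one was that of Mettl16. Counted in bases, the peaks of the set covered 16254 bases in KO and 17868 in WT, with 14846 in common. That is 91.3% of the KO bases and 83.1% of the WT bases, against 64.4% and 66.7% for all KO and WT peaks. The share of WT bases still under a KO peak was 93.2% for Rbm15, 90.5% for Rbm15b, 89.9% for Zc3h13, 79.3% for Wtap, 75.0% for Cbll1 and 57.8% for Virma. Part of the Virma gap is a matter of names: with the peaks listed as Rad54b inside Virma included, KO peaks covered 2585 bases and WT peaks 2762, of which 2104 were common.

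**Figure D3:**
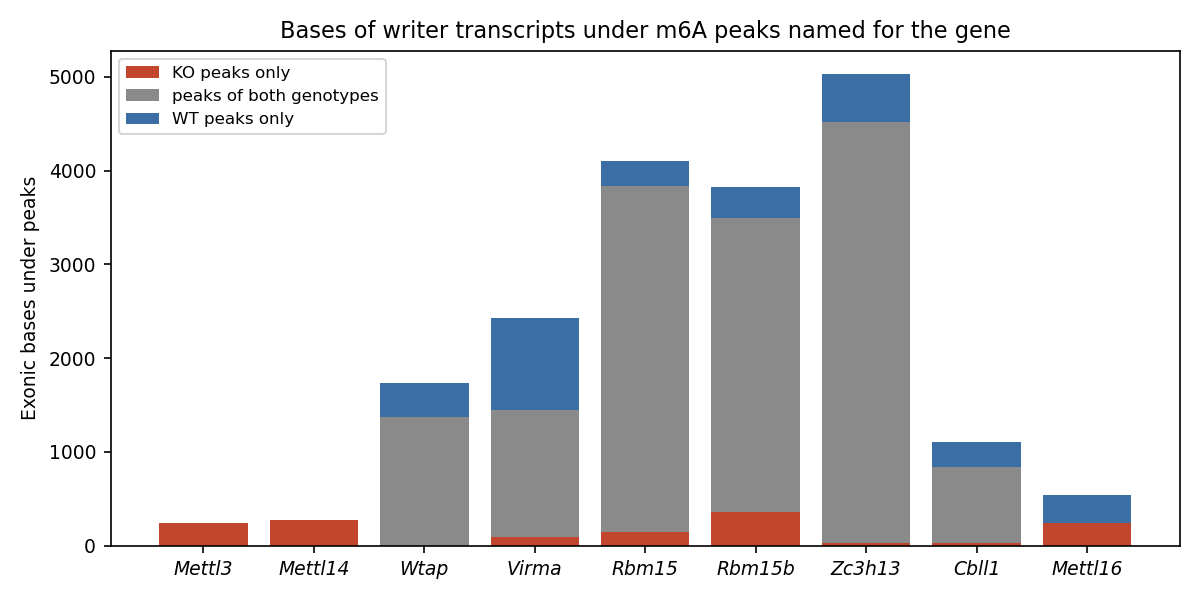
Exonic bases of each writer gene under KO peaks only (red), under peaks of both genotypes (grey) and under WT peaks only (blue), for peaks named for the gene. Zc3h13 has 4490 shared bases and Mettl3, Mettl14 and Mettl16 have none.

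Enrichment was lower in KO at all 8 peaks of the set in the authors' deposited table, where 69.6% of all 6050 listed peaks were lower. The largest p in it is 0.049, so peaks without a difference are not among the 6050. That p compares enrichment between genotypes with 1 IP and 1 input library each, and says nothing of how animals of a genotype vary. Strong peaks in it were nearly all lower: among the 2337 peaks with a peak p at or below 2e-53, that of the weakest writer peak, 92.4% were lower in KO. Which libraries this peak p covers is not stated, and whether choosing peaks by it favours a direction was not tested. The median log2 ratio of the 8 writer peaks was -0.39, against -0.40 for the whole of the authors' deposited table and -0.45 for those strong peaks. So 4 of 8 writer peaks lay below the table's median, against 50.0% of the table, and 7 of 8 had a false discovery rate under 0.05, against 79.6%. All 7 of these were lower, as were 71.6% of all peaks under that rate. By rank among all ratios of the authors' deposited table, Wtap stood at the 25.1st percentile, Cbll1 at the 30.1st, the first and second peak of Zc3h13 at the 58.7th and 44.3rd, with its 3′-most peak between that second peak and Cbll1, Virma at the 57.7th, Rbm15b at the 58.7th and Rbm15 at the 68.3rd. Counting instead every differential peak inside the RefSeq extent of a writer gene, whatever its name, 10 were lower and 1 was higher in the authors' deposited table. The higher one was that inside Virma. The 10 include the Cbll1 peak and the Gm29542 peak over the same stretch on the opposite strand, which may be 1 signal.

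**Figure D4:**
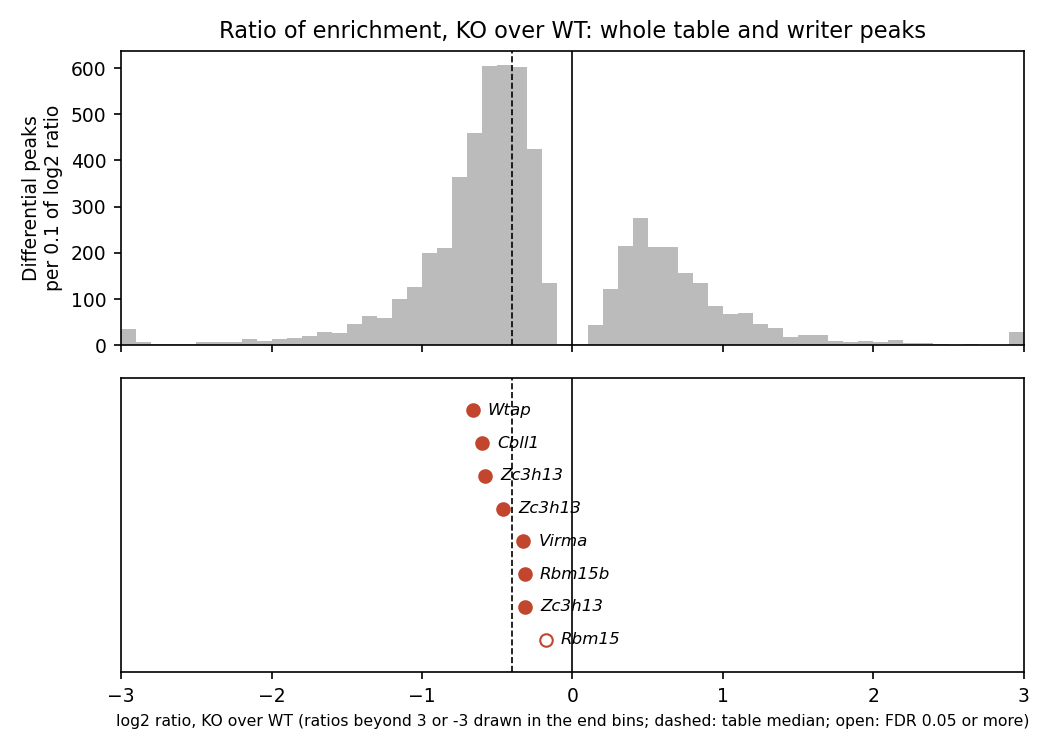
Upper panel, number of differential peaks per 0.1 of log2 ratio (KO enrichment over WT enrichment) in the authors' deposited table, with the table median of -0.40 dashed and ratios beyond 3 or -3 drawn in the end bins. Lower panel, the 8 writer peaks on the same axis, with an open circle for a false discovery rate of 0.05 or more. All 8 lie between -0.66 (Wtap) and -0.18 (Rbm15), inside the main body of lower peaks.

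Input levels of the 6 writer genes that have one were slightly higher in KO, in the order Wtap, Virma, Zc3h13, Cbll1, then the RBM15 pair. Wtap stood at 12.4 FPKM in KO and 10.1 FPKM in WT, Virma at 8.37 FPKM in KO and 7.44 FPKM in WT, and Zc3h13 at 7.77 FPKM in KO and 6.98 FPKM in WT. Cbll1 stood at 5.40 FPKM in KO and 4.22 FPKM in WT. Rbm15 and Rbm15b were almost level in KO, at 4.42 and 4.37 FPKM, and in WT they stood at 3.51 and 3.92 FPKM, so their order differed between the libraries. The KO over WT ratio of these levels in the authors' deposited table ran from 1.11 (Zc3h13) to 1.28 (Cbll1), and the authors' p for the input difference ran from 0.663 (Cbll1) to 0.897 (Zc3h13), with an adjusted p of 1 for each.

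As log2(FPKM + 1), KO minus WT, the median difference of the 6 genes was 0.21, from 0.13 (Rbm15b) to 0.29 (Cbll1). All 6 were above 0, where 69.0% of the 3679 listed genes that averaged 1 FPKM or more were above 0, and all 6 were above the median of those genes, 0.07. The authors' adjusted p was under 0.05 for 0 of 4403 genes with a listed level, and with 1 library per group no other test was run. In these bulk libraries fewer cells of a type and less RNA per cell cannot be told apart. The input library is also the denominator of the enrichment, so level and peak ratio share their data.

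**Figure D5:**
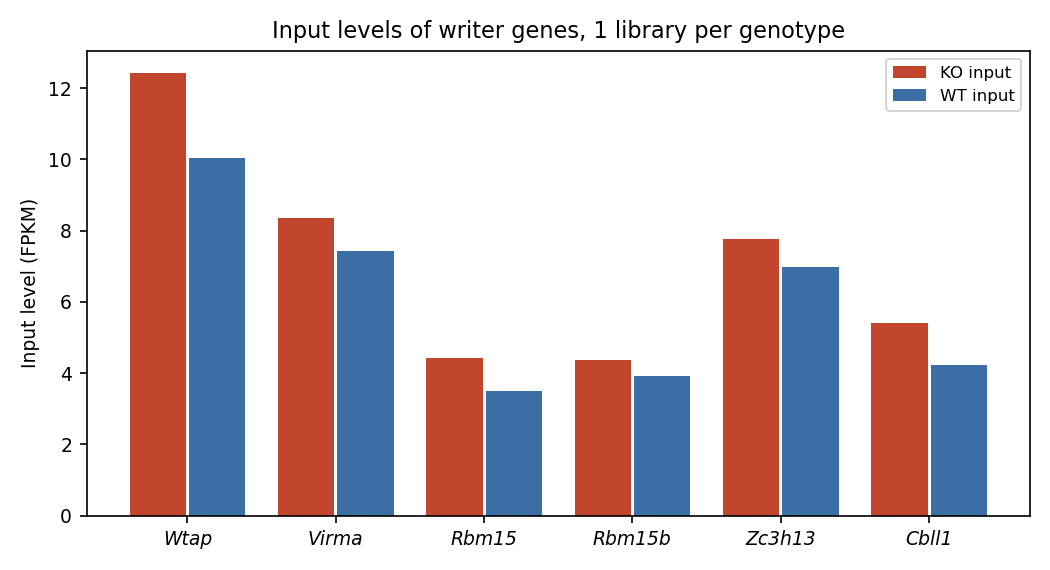
Input level in FPKM of the 6 writer genes with a listed level, KO in red left of WT in blue, 1 library each. Wtap is the highest of the 6 in each genotype and the KO bar is the taller for all 6.

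Other genes of the m6A pathway were counted in the same way. Of 5 further RNA adenosine methyltransferases and partners (Mettl5, Trmt112, Zcchc4, Pcif1, Mettl4), Pcif1 and Mettl4 had peaks in both genotypes, Trmt112 had a KO peak and no listed WT peak, Mettl5 had a WT peak and no listed KO peak, and none had a differential peak. Of the 2 demethylases, Fto had 1 differential peak, at a log2 ratio of -0.39 in the authors' deposited table (false discovery rate 0.0955). The 12 readers, proteins that bind m6A, had 8 differential peaks in 5 genes, 6 of them lower and 2 higher, near the 69.6% of the whole table that were lower. Ratios in the authors' deposited table were -0.40 for Ythdf2, -0.37 for Ythdf3, -0.97 and -1.18 for Ythdc1, 0.37 and -0.12 for Hnrnpa2b1 and 0.20 and -0.44 for Prrc2a. Of these only the Ythdc1 peak at -0.97 had a false discovery rate over 0.05 in the authors' deposited table (0.11). Mat2a encodes an enzyme that makes S-adenosylmethionine, the methyl donor of the methyltransferases, and its transcript is a known METTL16 substrate in human cells. Mat2a had a higher peak in its 3′ UTR, from 72432799 to 72433337 on chromosome 6. Its log2 ratio was 0.43 in the authors' deposited table (false discovery rate 2.14e-05). The input level of Mat2a was 23.6 FPKM in KO and 22.6 FPKM in WT. Ahcyl2, related to the enzyme that clears S-adenosylhomocysteine, had a peak at a log2 ratio of -0.42 in the authors' deposited table (false discovery rate 0.0257).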

How the data were processed

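The 4 libraries were grouped by their titles. Tools named by the submitters' processing notes are edgeR, StringTie, ChIPseeker, HOMER, HISAT2 and fastp, on build mm10, with no step for each. Which of them called the peaks is not stated there. The authors deposited peak lists that hold the ratio (fold) of IP to input for each peak, a p-value and log10 scores of p and false discovery rate, per the file headers. A deposited table of KO against WT gives, per the file headers, a log2 ratio, its p-value and, for the genes of those peaks, input FPKM, which is missing for 370 peaks.

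Deposited starts count from 0: 3273 peaks start 1 base before the listed transcript start and 33 at it. Starts are given here plus 1. Overlaps used exonic blocks, at least 1 shared base and no strand (bedtools 2.31.1, Python 3.11.15, numpy 2.4.6, pandas 2.3.3, matplotlib 3.10.9), tested on simulated data. RefSeq extents and promoter windows are of GRCm38.p6, whose coordinates mm10 shares. Percentiles are ranks within a list. Input differences used a pseudocount of 1 FPKM and genes that averaged 1 FPKM or more. Read depth is unknown, so no counting interval is given. The 9 genes and all lists were chosen with earlier results of these data known. All writers and all further methyltransferases and partners were named, as were demethylases and readers with a differential peak. Of the macrophage markers, only those at the ends of the range of levels were named. A result of the S-adenosylmethionine list is not reported here, nor are that list's counts. The search by RefSeq extent in the table of differences was added after seeing the data. Alternatives are given in the closing section.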

Additional observations from a re-analysis of the deposited data

How the results depend on the processing

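Each result rests on 1 library per group. No paired analysis was possible because each group holds 1 library. Of 27 alternatives, 21 left a count within 1.5 times of its value, or a median inside the range of its members. Of 14 KO peaks, 9 had 4-fold or more and 9 had a p no larger than 1e-10, whereas 22 KO peaks overlapped the RefSeq extent of a writer gene under any name. Of the 8 differential peaks lower in KO, 5 had a p under 0.001 and 4 were lower once the table's median was subtracted. The median log2 ratio of the writer peaks, -0.39, turned to 0.0085 with that subtraction, since it lay close to the table's median of -0.40. The search for GGACT within peaks was not run, since it needs bases under the peaks that were not used here. Depth is unknown, so a peak missing from a list is not shown to be absent from the cells. Leaving out the nested Rbm15b peak was chosen after seeing the data.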
